A study of Homo sapiens with 6 samples.

Results

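The genes examined here are 10 inhibitors that restrain MAP kinase signaling: the phosphatases DUSP1, DUSP4, DUSP5, DUSP6, DUSP7 and DUSP10, the Sprouty proteins SPRY1 and SPRY2, and their relatives SPRED1 and SPRED2. They were taken by symbol for their known roles, at a time when earlier results of these data were already known. All 10 were found among the 17860 genes of the deposited table. HCC1806-HM3 is a derivative of the human triple-negative breast squamous carcinoma line HCC1806, obtained by repeated passage through liver metastases in mice. Bulk mRNA was sequenced from 3 samples of HCC1806-HM3 cells carrying a control shRNA (shNC) and 3 samples of the same cells carrying an shRNA against mesothelin (shMSLN). Both hairpins were delivered by lentivirus, and the stable cells were selected with G418. The labels give 1 knockdown group and do not say which hairpin was used, how many lines it holds, or whether the cells are a clone or a pool. Nothing says that the samples of a group came from separate cultures, so p-values measure only the spread between these samples, which may be technical.

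ERK is switched on by a cascade that runs from receptors such as EGFR through RAS, RAF and MEK, and the active kinase raises the transcription of several of its own inhibitors. The dual-specificity phosphatases (DUSPs) remove phosphate from the activation loop of MAP kinases. DUSP6 and DUSP7 act in the cytoplasm and prefer ERK, whereas DUSP1, DUSP4 and DUSP5 are nuclear and quickly induced. DUSP10 prefers JNK and p38 over ERK, so it restrains ERK less directly than the group's name implies. Sprouty proteins interrupt the signal between receptor and RAF, and SPRED proteins recruit the RAS inactivator neurofibromin to the membrane. The mRNA of such genes is often read as a footprint of ERK output. The study asked whether mesothelin acts through EGFR and ERK. By Western blot it reported less ERK phosphorylation after MSLN knockdown in HM3 cells, a protein measure that these mRNA data do not hold.

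Each sample held from 17507837 to 18512135 estimated counts in all. MSLN, the targeted gene, was at 231, 226 and 227 CPM (reads scaled to a common library size, with TMM factors) in shNC replicates 1, 2 and 3 and at 37.1, 36.2 and 35.4 CPM in shMSLN replicates 1, 2 and 3. It fell by 2.65 on the log2 scale, to 15.9% of the control level, with a standard error of 0.042 and an adjusted p of 3.97e-15. All such p-values come from the quasi-likelihood method of edgeR, adjusted over all genes tested. The epithelial and squamous markers KRT5, KRT6A, KRT14, KRT17, TP63, EPCAM and CDH1 summed to between 3190 and 3470 TPM in shNC samples and between 2810 and 2860 TPM in shMSLN samples. Most of this sum was KRT5, which fell by 0.38 on the log2 scale. KRT6A fell by 1.04 and TP63 by 0.22, KRT17 rose by 0.16 and CDH1 by 0.15, and KRT14 and EPCAM did not pass the test. The hepatocyte markers ALB and APOA1 were at or below 0.15 TPM in sum in every sample, and TTR was not in the deposited table. The endothelial markers PECAM1, VWF and CDH5 summed to at most 2.86 TPM. The fibroblast markers COL1A1, COL1A2, PDGFRB and DCN summed to at most 14 TPM, most of it COL1A1. VWF rose by 0.41 on the log2 scale and DCN by 0.70, and no other gene of these lists passed the test. The leukocyte list (PTPRC, CD3E and CD68) summed to between 32.3 and 37.7 TPM across all samples. Most of this was CD68, with means of 31.6 TPM in shNC and 29.6 TPM in shMSLN samples. PTPRC was at 3.03 and 3.9 TPM and CD3E at 0.06 and 0.0633 TPM. The hormone receptor genes ESR1 and PGR, whose products a triple-negative line should lack, summed to between 6.33 and 6.99 TPM in shNC and between 9.20 and 9.51 TPM in shMSLN samples, and PGR was under 1 TPM throughout. Whether the shifts in these markers have a part in the results below was not tested. In bulk samples fewer cells of a type and less RNA per cell cannot be told apart, and mRNA carries no measure of kinase phosphorylation. The counts are deposited with up to 2 decimals. Among genes with more than 100 reads, 47.7% of the counts were exactly whole, with no tolerance, in shMSLN replicates 2 and 3, against 3.36% to 7.02% in the other 4 samples, so the columns of a group differ in form, and how they were made is not given in the sources used here. For that reason the change in shMSLN replicate 1 is given separately where it matters.

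In GENCODE 29 (GRCh38) 5 of the 6 phosphatase genes lie at chr12:89347232-89353271 (DUSP6), chr3:52048919-52056550 (DUSP7), chr5:172768090-172771195 (DUSP1), chr10:110497838-110511544 (DUSP5) and chr1:221701424-221742176 (DUSP10). The Sprouty and SPRED genes lie at chr4:123396795-123403760 (SPRY1), chr13:80335976-80340951 (SPRY2), chr15:38252326-38357249 (SPRED1) and chr2:65310851-65432637 (SPRED2). DUSP5, SPRY1 and SPRED1 are on the forward strand and the others on the reverse strand, and all values are per gene.

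The promoters of 8 of the 10 genes were matched by symbol in RefSeq (GRCh38.p14), in 13 windows that run from 250 bases before to 50 bases after a transcription start. DUSP4 and DUSP5 had no entry. Stretches upstream of DUSP7 and DUSP10, which fell, and of DUSP1, which did not pass the test, are shown to let the start regions be compared. Capitals mark TGACGT, the core of the cAMP response element (CRE), on either strand, which includes the full palindrome TGACGTCA. The printed bases are those before the start that no annotated exon covers, 5′ to 3′ along the gene, and all 3 genes lie on the reverse strand. They are chr3:52056572-52056821 for DUSP7, chr1:221742177-221742339 for DUSP10 and chr5:172771196-172771445 for DUSP1.
DUSP7: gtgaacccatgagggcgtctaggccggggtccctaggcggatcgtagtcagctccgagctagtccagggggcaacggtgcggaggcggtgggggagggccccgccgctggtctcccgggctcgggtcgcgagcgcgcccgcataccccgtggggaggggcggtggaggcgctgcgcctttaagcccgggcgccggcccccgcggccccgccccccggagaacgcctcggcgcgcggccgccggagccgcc
DUSP10: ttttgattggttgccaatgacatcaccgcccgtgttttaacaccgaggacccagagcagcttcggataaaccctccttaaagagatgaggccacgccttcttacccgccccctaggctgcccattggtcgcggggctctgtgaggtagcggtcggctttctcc
DUSP1: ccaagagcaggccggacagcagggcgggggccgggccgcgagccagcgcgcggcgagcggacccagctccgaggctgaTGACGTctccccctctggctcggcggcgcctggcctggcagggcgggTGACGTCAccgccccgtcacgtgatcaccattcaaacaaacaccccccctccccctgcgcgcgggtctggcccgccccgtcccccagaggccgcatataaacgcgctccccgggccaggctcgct

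The DUSP1 window held TGACGT starting 172 bases before the start, and the full TGACGTCA starting 125 bases before it. The full CRE was in 1 of the 13 windows, that of DUSP1, and in 1.85% of 35116 windows of the same length over all genes. TGACGT was found in the windows of DUSP1 and SPRED2 and in 7.98% of all windows. The AP-1 site TGANTCA was found in 1 window, an internal SPRED2 start, against 7.71% of all windows. The ETS site CCGGAAG was found in 1 window, an internal SPRY1 start, against 10.3% of all windows. The CArG box of serum response factor and the EGR site GCGTGGGCG were in 0 of the 13 windows, against 1.29% and 0.795% of all. Both strands were searched, the core lies inside the full CRE and was counted for both, and a match is a description of the letters only. DUSP7 and DUSP10, which fell, carried none of the 6 motifs in these windows, nor did DUSP6, SPRED1 and SPRY2.

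Of the 10 inhibitors, 5 fell in shMSLN cells (DUSP4, DUSP6, DUSP7, DUSP10 and SPRED1), 0 rose, and 5 did not pass the test (DUSP1, DUSP5, SPRY1, SPRY2 and SPRED2). In this comparison 34.6% of the 14552 genes tested were called at an adjusted p below 0.05, with 18.0% lower and 16.6% higher. That is 2621 lower and 2411 higher genes, a split that turned to 2149 lower and 2911 higher under upper-quartile scaling. All 10 genes passed the filter on low counts. In 5 of the 10 genes the groups did not overlap in CPM, all lower in shMSLN, where 46.2% of all genes tested had separated groups and 23.5% had separated groups that were lower and 22.7% separated groups that were higher. The median log2 fold change of the 10 genes was -0.17, against 0.0019 over all genes tested. The falls were small except for DUSP4: the other 4 genes kept between 72.0% and 76.4% of their control level.

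**Figure D1:**
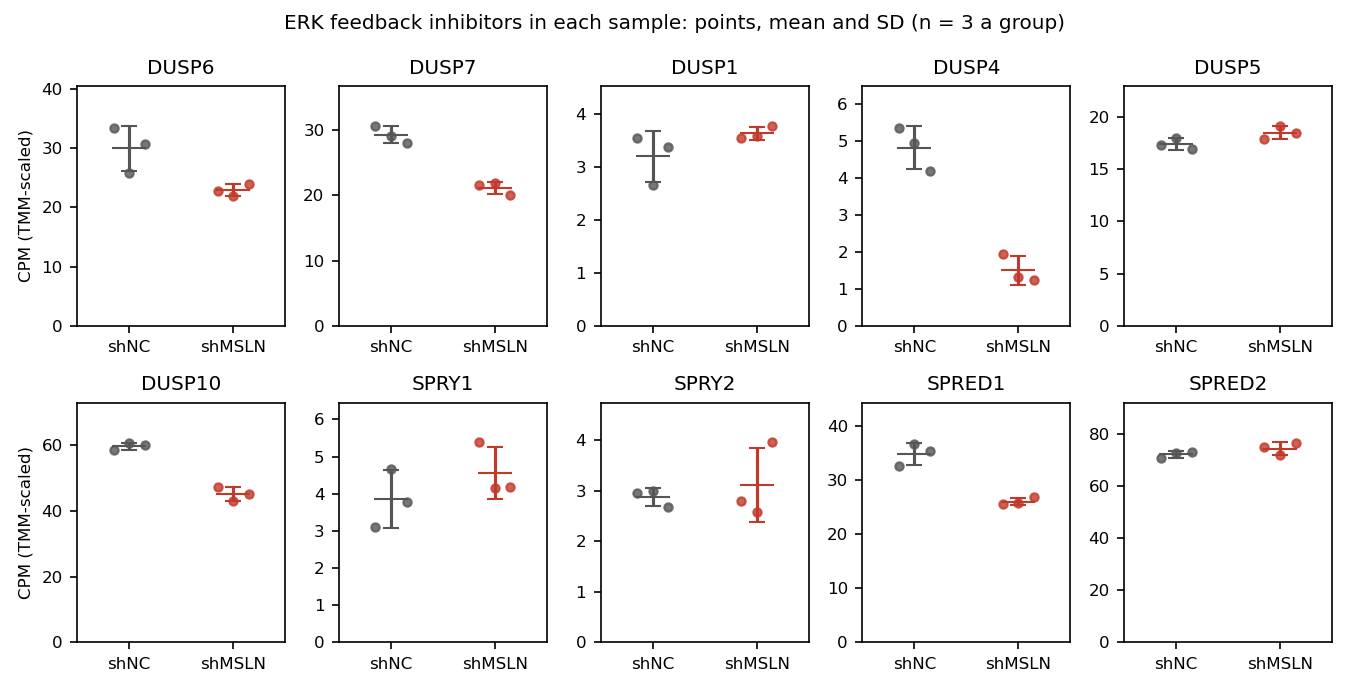
Level of each of the 10 inhibitors in CPM (TMM-scaled, axes from 0) in the 3 shNC and 3 shMSLN samples, with the mean and SD of each group. The groups are separated for DUSP6, DUSP7, DUSP4, DUSP10 and SPRED1 and overlap for the other 5 genes.

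DUSP6, the ERK-selective phosphatase that is a standard transcriptional readout of ERK activity, was at 33.3, 25.8 and 30.7 CPM in shNC replicates 1, 2 and 3. In shMSLN replicates 1, 2 and 3 it was at 22.8, 21.9 and 23.9 CPM. Every knockdown sample was below every control, and shNC replicate 2 was the control closest to the knockdown samples. The log2 fold change was -0.39 (standard error 0.083, 95% interval -0.57 to -0.21, adjusted p = 0.0023 from edgeR). With shMSLN replicate 1 as the 1 knockdown sample the value was again -0.39, but the test was no longer passed (adjusted p = 0.0686). In the annotation, an antisense RNA gene overlaps DUSP6, another overlaps DUSP1, and a sense intronic RNA gene on the same strand overlaps SPRED2. The counting is not stated to use strand, so reads of the antisense partners could not be told apart, and strand alone would not separate the partner of SPRED2.

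DUSP7, the closest relative of DUSP6 among the cytoplasmic phosphatases, was at 30.6, 29.1 and 28.0 CPM in shNC samples and 21.5, 21.8 and 20 CPM in shMSLN samples. The groups were clearly apart, with a gap larger than the range within either. Its log2 fold change was -0.47 (standard error 0.064, 95% interval -0.61 to -0.34, adjusted p = 5.33e-05 from edgeR).

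Of the 3 nuclear phosphatases, DUSP4 fell and the others did not pass the test. DUSP4, an inducible phosphatase that acts on ERK and JNK, had the largest fall of the 10 genes. It was at 5.33, 4.93 and 4.18 CPM in shNC samples and 1.94, 1.32 and 1.24 CPM in shMSLN samples, which rest on 97.3, 88.9 and 75 estimated reads against 36.0, 23.6 and 22. All knockdown samples lay below every control, and the highest knockdown sample was less than the lowest control by more than the range of either group. The log2 fold change was -1.66 (standard error 0.20, 95% interval -2.09 to -1.24, adjusted p = 1.64e-05 from edgeR), which left 31.2% of the control level. Only 0.0893% of the genes tested had a log2 fold change as low. Against the mean of the shNC samples, the log2 change was -1.31 in shMSLN replicate 1 and -1.86 and -1.95 in replicates 2 and 3. The fall was thus smaller in the sample whose share of whole counts was near that of the controls, and with that sample alone the log2 fold change was -1.31. In missing values that sample was not like the controls: it lacked 1103 genes, shMSLN replicates 2 and 3 each lacked 695, and the shNC samples lacked 0.

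DUSP5, a nuclear phosphatase specific for ERK, was at 17.3, 18 and 16.9 CPM in shNC samples and 17.9, 19.1 and 18.4 CPM in shMSLN samples. The groups overlapped. The log2 fold change of 0.086 did not pass the test (adjusted p = 0.364 from edgeR), and its 95% interval of -0.062 to 0.23 does not reach the size of the DUSP6 change in either direction. DUSP1, an immediate early phosphatase for JNK, p38 and ERK, was at 3.56, 2.66 and 3.39 CPM against 3.55, 3.59 and 3.78 CPM. Its log2 fold change was 0.18 with an interval of -0.17 to 0.54 (adjusted p = 0.42 from edgeR), so at 48.0 to 67.0 reads a sample a rise of that size could not be told from no change. Without shNC replicate 2, the lowest control, the log2 fold change was 0.068. The lowest shMSLN sample was just under the highest shNC sample, so the groups overlapped. The differences between DUSP4, DUSP1 and DUSP5 were not themselves tested.

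DUSP10, which prefers JNK and p38, was the most abundant of the 10 genes per length in shNC cells. It was at 58.4, 60.5 and 60.1 CPM in shNC samples and 47.3, 43.0 and 45.1 CPM in shMSLN samples. The groups were far apart relative to their spread. The log2 fold change was -0.40 (standard error 0.050, 95% interval -0.51 to -0.30, adjusted p = 2.29e-05 from edgeR).

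**Figure D2:**
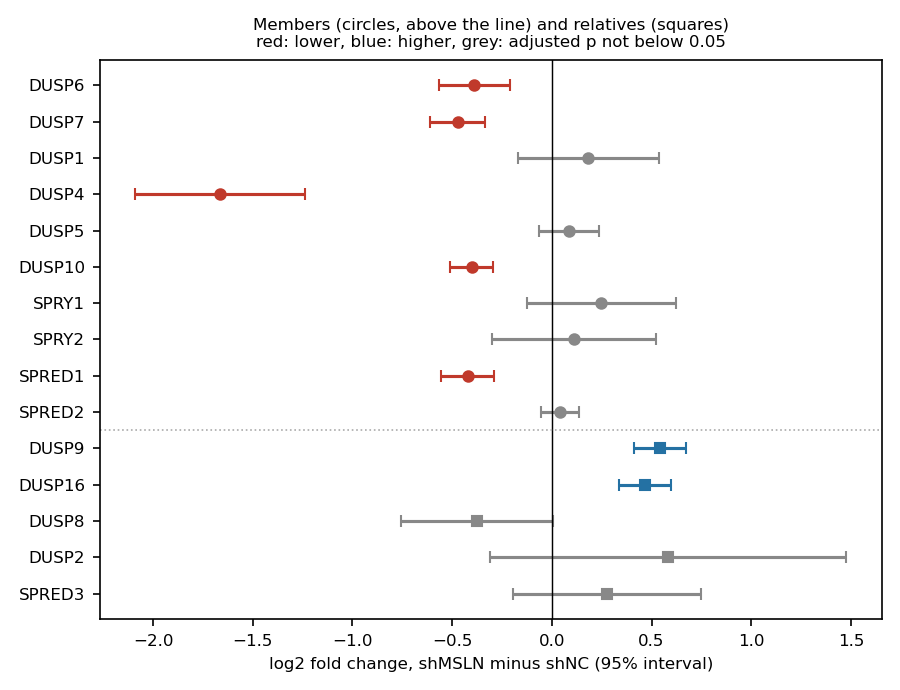
Log2 fold change (shMSLN minus shNC, x axis) with its 95% interval for the 10 inhibitors (circles) and 5 tested relatives (squares), colored by direction where the adjusted p was below 0.05. DUSP4 lies at -1.66, the other 4 falls lie between -0.47 and -0.39, and the relatives DUSP9 and DUSP16 lie above 0.

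Neither Sprouty gene passed the test. SPRY1 was at 3.11, 4.66 and 3.78 CPM in shNC samples and 5.38, 4.15 and 4.18 CPM in shMSLN samples, with overlapping groups. Its log2 fold change was 0.25 with an interval of -0.12 to 0.62 (adjusted p = 0.294 from edgeR). The value was 0.12 without shNC replicate 1, 0.41 without shNC replicate 2 and 0.11 without shMSLN replicate 1, and it passed the test in none of these. SPRY2, a classic ERK-induced inhibitor, was at 2.96, 2.99 and 2.67 CPM in shNC samples and 2.80, 2.58 and 3.95 CPM in shMSLN samples. The higher mean in the knockdown came from shMSLN replicate 3, and without it the log2 fold change turned from 0.11 to -0.094; it was 0.062 without shNC replicate 3, 0.18 without shMSLN replicate 1 and 0.23 without shMSLN replicate 2. The interval of SPRY2, -0.30 to 0.52, was wide, and the gene had 46.0 to 70.0 reads a sample.

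Of the SPRED genes, SPRED1 fell and SPRED2 did not pass the test. SPRED1, whose product inhibits RAS through neurofibromin, was at 32.6, 36.6 and 35.4 CPM in shNC samples and 25.5, 25.7 and 26.8 CPM in shMSLN samples. It fell with no overlap, by 0.42 on the log2 scale (standard error 0.061, 95% interval -0.55 to -0.29, adjusted p = 9.44e-05 from edgeR). SPRED2, which has the same role, was at 70.7, 72.7 and 73.1 CPM against 75, 71.8 and 76.4 CPM. Its log2 fold change of 0.043 did not pass the test (adjusted p = 0.488), and its interval of -0.052 to 0.14 was the narrowest of the 10 genes. The difference between the changes of SPRED1 and SPRED2 was not itself tested. NF1, the gene of neurofibromin, had a log2 fold change of -0.033 with an interval of -0.14 to 0.072 (adjusted p = 0.643).

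**Figure D3:**
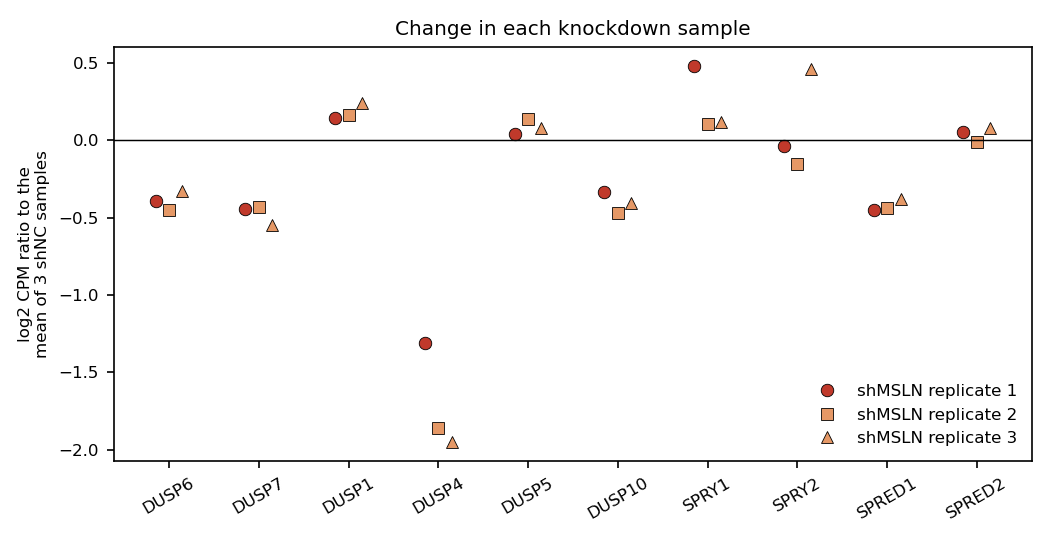
Log2 ratio of the CPM in each shMSLN sample to the mean of the 3 shNC samples, for the 10 inhibitors. The 5 genes that fell are below 0 in all 3 samples; DUSP4 is at -1.31 in replicate 1 and lower in the other two, and SPRY2 is above 0 in replicate 3 only.

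Levels were compared between genes on the deposited TPM values, which are scaled for gene length. In shNC cells DUSP10 was highest at 49.4 ± 1.92 TPM (SD, n = 3), followed by SPRED2 at 38.2 ± 1.60 TPM. DUSP7, DUSP6 and DUSP5 followed at 19.0 ± 0.829, 17.9 ± 1.92 and 15.4 ± 0.794 TPM, and in this order neighbors overlapped in their ranges. SPRED1 was at 10.1 ± 0.735 TPM, apart from its neighbors. DUSP1, SPRY1 and SPRY2 were at 3.50 ± 0.450, 3.25 ± 0.648 and 2.74 ± 0.162 TPM and overlapped in turn. DUSP4 was lowest, at 1.86 ± 0.242 TPM, and contributed 1.15% of the summed level of the 10 genes, so the largest fall was in the scarcest transcript.

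In shMSLN cells the order changed. SPRED2 at 39.9 ± 0.855 TPM and DUSP10 at 37.9 ± 1.62 TPM (SD, n = 3) overlapped, and DUSP5 at 16.7 ± 0.665 TPM stood above DUSP6 at 14.1 ± 0.629 and DUSP7 at 14 ± 0.599 TPM. DUSP4 remained lowest, at 0.600 ± 0.148 TPM. The 10 genes together summed to 159, 165 and 160 TPM in shNC samples and 143, 139 and 144 TPM in shMSLN samples, or 87.9% of the control. The 6 DUSP genes summed to 81.6% of the control in TPM and 78.1% in CPM, with no overlap in either unit. The 4 SPRY and SPRED genes summed to 54.3 ± 3.06 TPM in shNC and 54.5 ± 1.81 TPM in shMSLN cells. Their groups overlapped in both units (95% of the control in CPM), although SPRED1 itself fell. This split of the 10 genes was not planned and was not tested. DUSP10 and SPRED2 held the largest shares of the summed TPM in shNC cells, 30.6% and 23.6%.

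**Figure D4:**
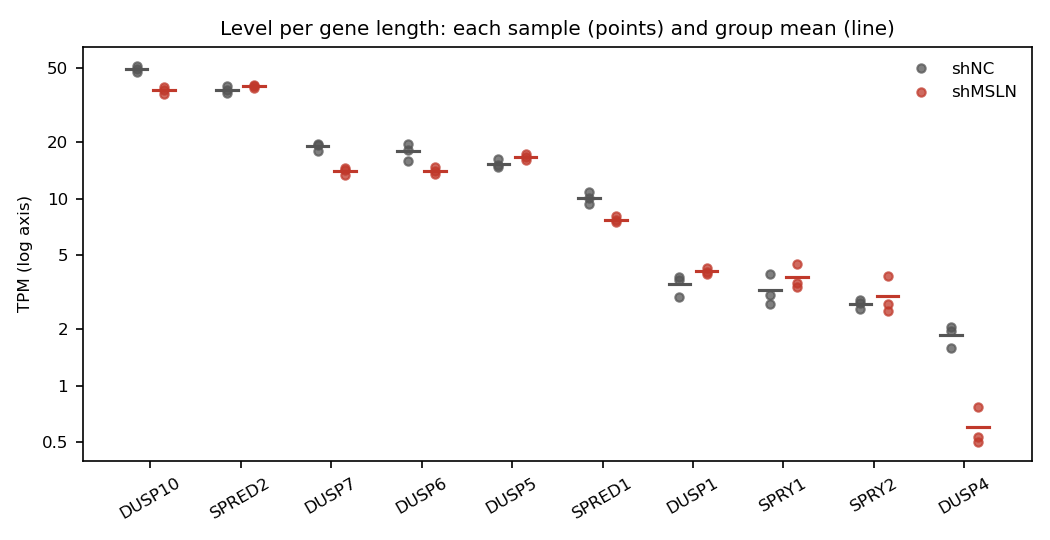
TPM of the 10 inhibitors in each sample (points, log axis) with group means (lines), ordered by the mean in shNC cells. DUSP10 and SPRED2 lead, a middle group lies between 10.1 and 19.0 TPM in shNC cells, and DUSP4 is last at 1.86 TPM.

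Among close relatives of these genes, DUSP9 and DUSP16 rose. Of 6 further phosphatase, Sprouty and SPRED genes, 5 were tested, of which 2 rose, 0 fell and 3 did not pass. Over all genes tested 16.6% rose and 18.0% fell. DUSP9, which like DUSP6 and DUSP7 is a cytoplasmic phosphatase that prefers ERK, was at 36.1, 36.5 and 33.4 CPM in shNC samples and 54.5, 47.6 and 52.3 CPM in shMSLN samples. Its groups were far apart, and it rose by 0.54 on the log2 scale (standard error 0.060, adjusted p = 7.89e-06 from edgeR). DUSP16, which prefers JNK and p38 as DUSP10 does, rose from 40.1 ± 3.40 to 55.4 ± 2.32 CPM (SD, n = 3 each), by 0.47 on the log2 scale (adjusted p = 3.81e-05 from edgeR). The remaining relatives tested had log2 changes of -0.38 in DUSP8 (adjusted p = 0.119), 0.58 in DUSP2 (adjusted p = 0.306) and 0.28 in SPRED3 (adjusted p = 0.361). DUSP2 rested on 12, 3 and 11 estimated reads in shNC samples and 12, 12 and 15 in shMSLN samples, and its value was 0.18 without shNC replicate 2 and 0.88 without shNC replicate 1. SPRY4 had 7 to 10 estimated reads in every sample and was removed by the filter, so no difference was detectable at this depth.

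Because DUSP9 rose while DUSP6 and DUSP7 fell, the summed levels were also taken, a choice made after these values were seen and therefore given with no test. DUSP6 and DUSP7 together were at 39.3, 35.3 and 36.3 TPM in shNC samples and 28.2, 28.0 and 28.1 TPM in shMSLN samples. With DUSP9 added, the sums were 71.5, 69.7 and 66.6 TPM in shNC samples and 78.8, 73.0 and 77.5 TPM in shMSLN samples. In TPM the sum of these 3 genes was thus higher in every shMSLN sample than in any shNC sample, at 110% of the control. In TMM-scaled CPM, which is not scaled for length and was added after seeing the data, the same sum was 94.5 ± 4.79 in shNC and 95.4 ± 3.81 in shMSLN samples (SD, n = 3 each), the groups overlapped and the level was 101% of the control. The separation of this sum therefore depended on the unit. DUSP8, DUSP10 and DUSP16 together were at 67.9 ± 3.25 TPM in shNC and 62.7 ± 2.01 TPM in shMSLN cells (SD, n = 3 each), with overlapping ranges in TPM and in CPM.

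The surrounding pathway was described from 3 lists. Over all genes tested 18.0% were lower and 16.6% higher, with a median log2 fold change of 0.0019. Of 12 MAP kinases and partners of the inhibitors, 2 rose, 4 fell and 6 did not pass, with a median log2 fold change of -0.051. The largest changes were in CBL, a ubiquitin ligase that binds Sprouty (-0.27), MAPK9, the JNK2 kinase (-0.24), and MAPK3, which encodes ERK1 (0.22), with adjusted p-values of 0.000758, 0.00774 and 0.00314 from edgeR. With shMSLN replicate 1 as the 1 knockdown sample, fewer genes were called, both in this list and over all genes tested.

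Of 12 other genes known to respond to ERK, 3 rose, 4 fell and 5 did not pass, with a median of -0.099. The largest were rises in the immediate early genes EGR1, by 1.84 on the log2 scale (adjusted p = 5.12e-11), and FOS, by 1.44 (adjusted p = 6.35e-05), and in the ETS factor ETV1, by 0.89 (adjusted p = 0.0258). ETV1 rested on only 11, 12 and 11 estimated reads in shNC samples and 23, 22 and 18 in shMSLN samples. The ETS factors ETV4 and ETV5 had log2 fold changes of 0.10 and 0.022 (adjusted p = 0.726 and 0.956 from edgeR). The 4 genes of this list that fell were EPHA2, CCND1, IER3 and EPHA4, between -0.46 and -0.23. Of 10 other brakes on receptor and RAS signaling, 3 rose, 3 fell and 4 did not pass, with a median of -0.12. CBLB, a ubiquitin ligase for EGFR, rose by 0.58 on the log2 scale (adjusted p = 1.63e-07). PEBP1, an inhibitor of the kinase cascade, rose by 0.22 (adjusted p = 0.000379), and RASA2, a RAS GTPase-activating protein, fell by 0.21 (adjusted p = 0.00398). With shMSLN replicate 1 as the 1 knockdown sample, fewer of these 10 brakes were called, as over all genes tested. Without shMSLN replicate 2, 3 of the brakes were called, and 3691 of all genes tested.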

How the data were processed

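The deposited table holds, per gene and sample, estimated counts, TPM and FPKM made by the authors from BGI sequencing of oligo(dT)-selected mRNA. FPKM values were looked at but not used. Per the labels the genome was GRCh38.p13; the aligner, the quantifier and the use of strand are not given in the sources used here. Of 17860 genes, 1287 had missing values in shMSLN columns and were left out. Estimated counts were rounded, filtered with filterByExpr (14552 genes kept), TMM-scaled and tested with edgeR 4.0.16 (R 4.3.3) by the quasi-likelihood method, shMSLN against shNC, n = 3 each, with Benjamini-Hochberg adjustment over all genes tested and a threshold of 0.05. Standard errors were the absolute log2 fold change over the root of F. DESeq2 1.42.0 and limma 3.58.1 were among 16 alternatives. On simulated data, 93% of 200 genes changed 2-fold were called, as were 17 unchanged genes. Smaller changes, such as those of most of the inhibitors, were not simulated. The 10 genes and all lists were chosen with earlier results of these data known. Beyond the 10 inhibitors, their relatives and the targeted gene, the text names the 3 called genes with the largest change in each list. NF1, ETV4, ETV5, the 4 ERK output genes that fell and the single cell type markers were named after their values were seen. The labels state no pairing, so numbers were not taken as pairs. Same-numbered samples correlated at 0.218, 0.0847 and 0.0954 in their deviations from the group means, each the highest value for its samples, which does not exclude pairing. Some members of the lists are counted but not reported here by name.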

Additional observations from a re-analysis of the deposited data

How the results depend on the processing

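Across the 16 alternatives, 5 of the 10 inhibitors were called except with shMSLN replicate 1 as the 1 knockdown sample, where its spread was assumed to equal that of the controls and DUSP6 (-0.39, adjusted p = 0.0686) was lost. That setting called 1831 genes in all, 2 MAP kinases and partners and 2 other feedback brakes. Leaving out 1 sample at a time gave 3691 to 5380 called genes and 3 to 8 feedback brakes, with 3 of them without shMSLN replicate 2. SPRY2 turned to -0.094 without shMSLN replicate 3 (range -0.094 to 0.23 over the samples left out) and to -0.038 with replicate 1 alone. DUSP8 passed at -0.52 (adjusted p = 0.0329) without shNC replicate 2. The summed level of the inhibitors was 85.6% of the control in TMM-scaled CPM. In the same unit, chosen after seeing the data, the sum of DUSP6, DUSP7 and DUSP9 was 101% in place of 110%, that of DUSP8, DUSP10 and DUSP16 99.8% in place of 92.5%, and that of SPRED1 and SPRED2 93.8% in place of 98.6%. The groups of the SPRED1 and SPRED2 sum overlapped in TPM. In CPM they did not overlap, though the nearest shNC and shMSLN samples were both at 103 after rounding. Causes were not tested. DESeq2 called 3863 genes. With the replicate block, 5789 genes were called and no call among the inhibitors changed. Every sample correlated best with its own number, a hint from the data and not from the design. DUSP1, DUSP4, SPRY1 and SPRY2 rested on at most 100 estimated reads a sample, which limits their precision.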
